A study of Caenorhabditis elegans with 6 samples.

Results

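The octopamine response of wild-type C. elegans was set against that of a daf-16 mutant, over 4 of the 6 arrays of the series. Octopamine is the invertebrate counterpart of noradrenaline, and the title of the series links it to oxidative stress resistance through DAF-16. The 4 groups were N2 without and with octopamine and daf-16(mu86) without and with octopamine, 1 array each. The daf-16 strain is labelled as being in the N2 background, and mu86 is a deletion allele. All animals grew for 3 days from synchronised eggs and were then transferred for 2 days to plates that held either no octopamine or 20 mg/mL of it. Whole bodies were used, and total RNA went onto single-colour Affymetrix arrays. Labels differ on age, with day 4 adult in the age field and 5 days in the extraction text. The other 2 arrays hold the double mutant ser-3(ok2007);ser-6(tm2146), untreated and treated in the same way. That strain lacks a pair of octopamine receptors, is called the receptor mutant below, and shares no array with the N2 and daf-16 pairs.

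DAF-16 is the FOXO transcription factor of C. elegans. Insulin-like signalling through the receptor DAF-2 and the kinase AKT-1 keeps it out of the nucleus, and starvation, heat or oxidative stress lets it enter. Genes raised by active DAF-16 are called class I targets and include stress, metal-binding and antimicrobial genes. Genes lowered when DAF-16 is active are called class II targets, and many of them are intestinal or infection-response genes.

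The measure was a difference of differences. For each gene the octopamine change in daf-16 (log2 signal with octopamine minus log2 signal without) was subtracted from the octopamine change in N2. A positive difference means that the change was higher in N2, a negative one that it was lower. Each array's median had been subtracted, and signals are printed on the deposited linear scale after that scaling. Because each group was 1 array, no difference has a replicate check, an error or a p-value. All 10251 genes above a signal filter are included, and genes are described as past 2-fold when the difference was at least 1 on the log2 scale in size. As the RNA came from whole animals, fewer cells of a type and less RNA per cell cannot be told apart.

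The daf-16 gene itself separated the strains at some of its probe sets. One of its 4 probe sets read 50.1 and 42.8 in N2 without and with octopamine, against 7.38 and 6.25 in daf-16. A second read 222 and 223 in N2 against 81.3 and 74.6 in daf-16. The remaining pair differed less: N2 exceeded daf-16 by 0.48 and 0.37 on the log2 scale without octopamine and by 0.54 and 0.45 with it. The octopamine change of the 4 probe sets was alike in both strains, with differences of 0.01 to 0.13. The sources used here do not give the probe sets that lie in the deleted part, and one outside it says nothing about the label.

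The arrays of the comparison were alike in their overall signal. Their medians spanned 0.089 on the log2 scale before scaling. The ratios of 3' to 5' probe sets for actin lay between 1.79 and 2.14 on the 4 arrays, those for GAPDH between 1.03 and 1.24 and those for ubiquitin between 5.32 and 5.77. Markers of intestine, body wall muscle, hypodermis, neurons and oocytes all had signal. Of the 45 probe sets for added control sequences (spike-ins), 30 were above the filter. Their differences had a median of 0.15, an SD across probe sets of 0.21 and a range of -0.65 to 0.49, with 0 past 2-fold.

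Most genes past 2-fold with octopamine in N2 kept at least 50% of that change in daf-16, and 147 of the 272 were past 2-fold in the same direction there. These genes were chosen for their N2 values. The differences of the 10251 genes had a median of 0.02 and an SD across genes of 0.25, and the central 95% lay between -0.51 and 0.50. With octopamine, 123 genes (1.2%) were higher by 2-fold or more in N2 and 149 (1.45%) lower by as much, against 79 (0.771%) and 117 (1.14%) in daf-16. Of the 272 genes past 2-fold in N2, 228 (83.8%) kept at least 50% of the change in daf-16. No interval is given for this share, since genes of 1 array are not independent. The share was 82.1% among the genes higher with octopamine and 85.2% among those lower. The median gene kept 74.4% of its N2 change in daf-16, 44 genes had a larger change in daf-16 than in N2, and 5 had the opposite sign there. No gene, 0 of 10251, was past 2-fold in opposite directions in the 2 strains.

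Only 21 genes (0.205%) differed by at least 2-fold between the strains in their octopamine change. The change was higher in N2 for 6 of them (0.0585%) and lower in N2 for 15 (0.146%). With the values as deposited, without median subtraction, the split was 8 to 12. The genes with a higher change in N2 included a pair of lysozymes, a desiccation-protective protein, a glutathione S-transferase and a major sperm protein. Those with a lower change included a lysosomal protease, a lysosomal lipase, CUB-domain and class II genes, an enzyme of propionate breakdown, and a pair of detoxification enzymes. Past a smaller difference of 0.5 were 264 genes (2.58%) higher in N2 and 277 genes (2.7%) lower. The plot of the octopamine change in each strain shows a cloud along the diagonal. Distance from the diagonal is the difference itself, so these 21 genes lie at the rim of the cloud by choice.

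**Figure D1:**
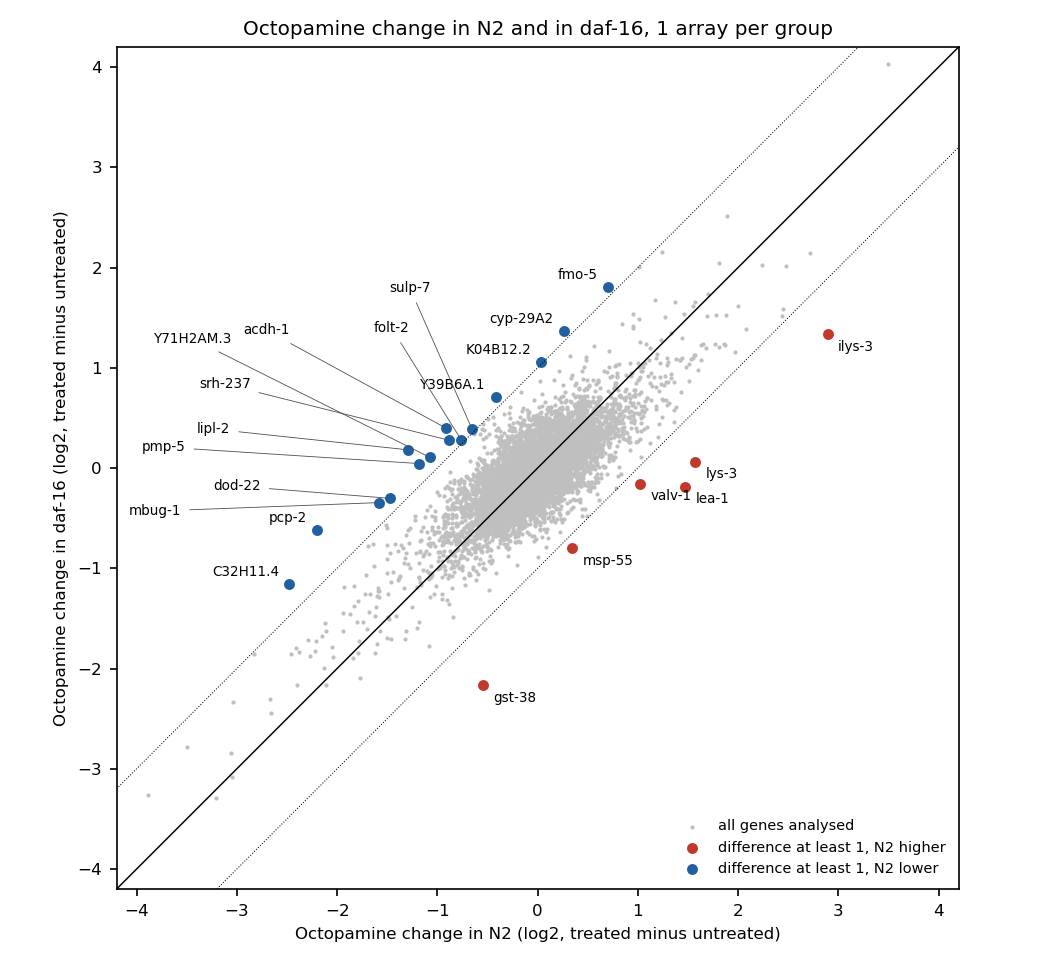
Octopamine change in N2 (horizontal axis, log2) and in daf-16 (vertical axis, log2) for the 10251 genes analysed, 1 point per gene, from 4 arrays. The solid line marks equal change and the dotted lines a difference of 1; the 6 red genes lie below and the 15 blue genes above them.

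Dim genes contributed more to the count than bright ones. When the genes were ordered by mean signal and cut into 4 groups of equal size, the SD of the difference across genes was 0.29 in the dimmest, 0.28 and 0.22 in the middle and 0.19 in the brightest. The numbers past 2-fold were 7, 6, 3 and 5 in the same order, and the numbers past 0.5 were 214, 206, 82 and 39. Of the 21 genes, 18 had 1 probe set, 2 were under the filter's signal of 15.5 on at least 1 of the 4 arrays, and 7 were read by probe sets whose suffix marks a match to more than 1 transcript. Genes past 0.5 had 77 other probe sets, of which 50 showed the same direction and 27 the opposite.

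The antimicrobial lysozymes ilys-3 and lys-3 were among the genes with a larger increase in N2. Lysozymes cleave bacterial cell walls, and in worms they are made largely in the intestine. The signal of ilys-3, an invertebrate-type lysozyme, was 25.2 without and 187 with octopamine for N2, 26.5 and 67.1 for daf-16, and 25.6 and 228 for the receptor mutant. The 3 strains were thus alike without octopamine and daf-16 was the lowest with it. The octopamine changes were 2.89 for N2, 1.34 for daf-16 and 3.16 for the receptor mutant, and the difference between N2 and daf-16 was 1.55. For lys-3, of the other lysozyme family, the signals were 11.95 and 35.5 for N2, 19.1 and 19.9 for daf-16, and 10.7 and 36.1 for the receptor mutant. Its octopamine changes were 1.57, 0.06 and 1.76, a difference of 1.51 between N2 and daf-16. The daf-16 pair was nearly flat, but lys-3 was dim, with the untreated N2 array under the filter's signal.

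Other lysozymes did not share this pattern. Of 16 lysozyme genes with a probe set 12 were above the filter, and their median difference was -0.21. The invertebrate lysozyme ilys-2 read 10.1 and 113 in N2 and 9.02 and 148 in daf-16, so it was higher with octopamine in both strains and its difference was -0.54. For lys-10 the signals were 10.97 and 40.7 in N2 and 12.64 and 72.4 in daf-16, a difference of -0.63. Both of these had untreated signals under the filter's. The class I lysozyme lys-7 read 3590 and 4210 in N2 and 2299 and 2595 in daf-16, lower in daf-16 under both conditions, with a difference of 0.05.

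The highest difference, 1.66, belonged to lea-1, which encodes a protein related to the late embryogenesis abundant proteins that protect seeds and worms from drying. On the probe set with the highest mean, signals were 569 and 1577 for N2, 526 and 462 for daf-16, and 703 and 2511 for the receptor mutant. The octopamine changes were 1.47, -0.19 and 1.84 in the same order. The array of daf-16 with octopamine was the only treated one without a high signal. The 6 lea-1 probe sets did not agree, however. A second read 325 and 838 in N2 and 304 and 259 in daf-16, a difference of 1.60. The other 4 had differences of 0.23, 0.09, 0.02 and -0.57, the last at signals of 563 and 498 in N2 and 432 and 569 in daf-16. Which transcripts of lea-1 each probe set reads was not examined.

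For gst-38, a glutathione S-transferase, the strains differed before treatment. The signals were 81.5 and 56.0 for N2, 347 and 77.6 for daf-16, and 59.3 and 58.1 for the receptor mutant. The untreated daf-16 array stood far above the other 5. The change in daf-16 was -2.16 against -0.54 in N2, and the difference of 1.62 thus came from the larger decrease in daf-16. None of the other glutathione S-transferases was past 2-fold; the next were gst-15 at -0.69 and gst-29 at -0.56, both dim. The SKN-1 reporter gst-4 read 839 and 873 in N2 and 469 and 623 in daf-16, a difference of -0.35.

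The remaining genes of this direction were valv-1, named for the intestinal valve, and msp-55. The signals of valv-1 were 103 and 208 for N2, 190 and 171 for daf-16, and 110 and 188 for the receptor mutant. The daf-16 array without octopamine was already near the treated arrays of the other strains, and the octopamine changes were 1.02, -0.16 and 0.78. The difference between N2 and daf-16 was 1.18. The signals of msp-55 were 103.7 and 132 for N2, 76.6 and 44.0 for daf-16, and 74.3 and 55.1 for the receptor mutant, a difference of 1.15. The genes just outside the 2-fold limit were C06E4.3 at 0.98 and msp-76 at 0.97, next to valv-1 and msp-55 just inside it.

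Further genes below this limit were mostly dim. The asparagine synthetase gene asns-2 was an exception, with signals of 204 and 1108 for N2, 265 and 758 for daf-16, and 539 and 1335 for the receptor mutant. It was higher with octopamine in every strain, by 2.44, 1.52 and 1.31, and the difference between N2 and daf-16 was 0.92. The claudin-like gene clc-19 read 105 and 186.3 in N2 and 265 and 254 in daf-16, a difference of 0.89, so that daf-16 was above N2 under both conditions. The F-box genes fbxb-43, fbxb-38 and fbxb-111 had differences of 0.92, 0.90 and 0.89 at signals between 14.03 and 50.7.

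**Figure D2:**
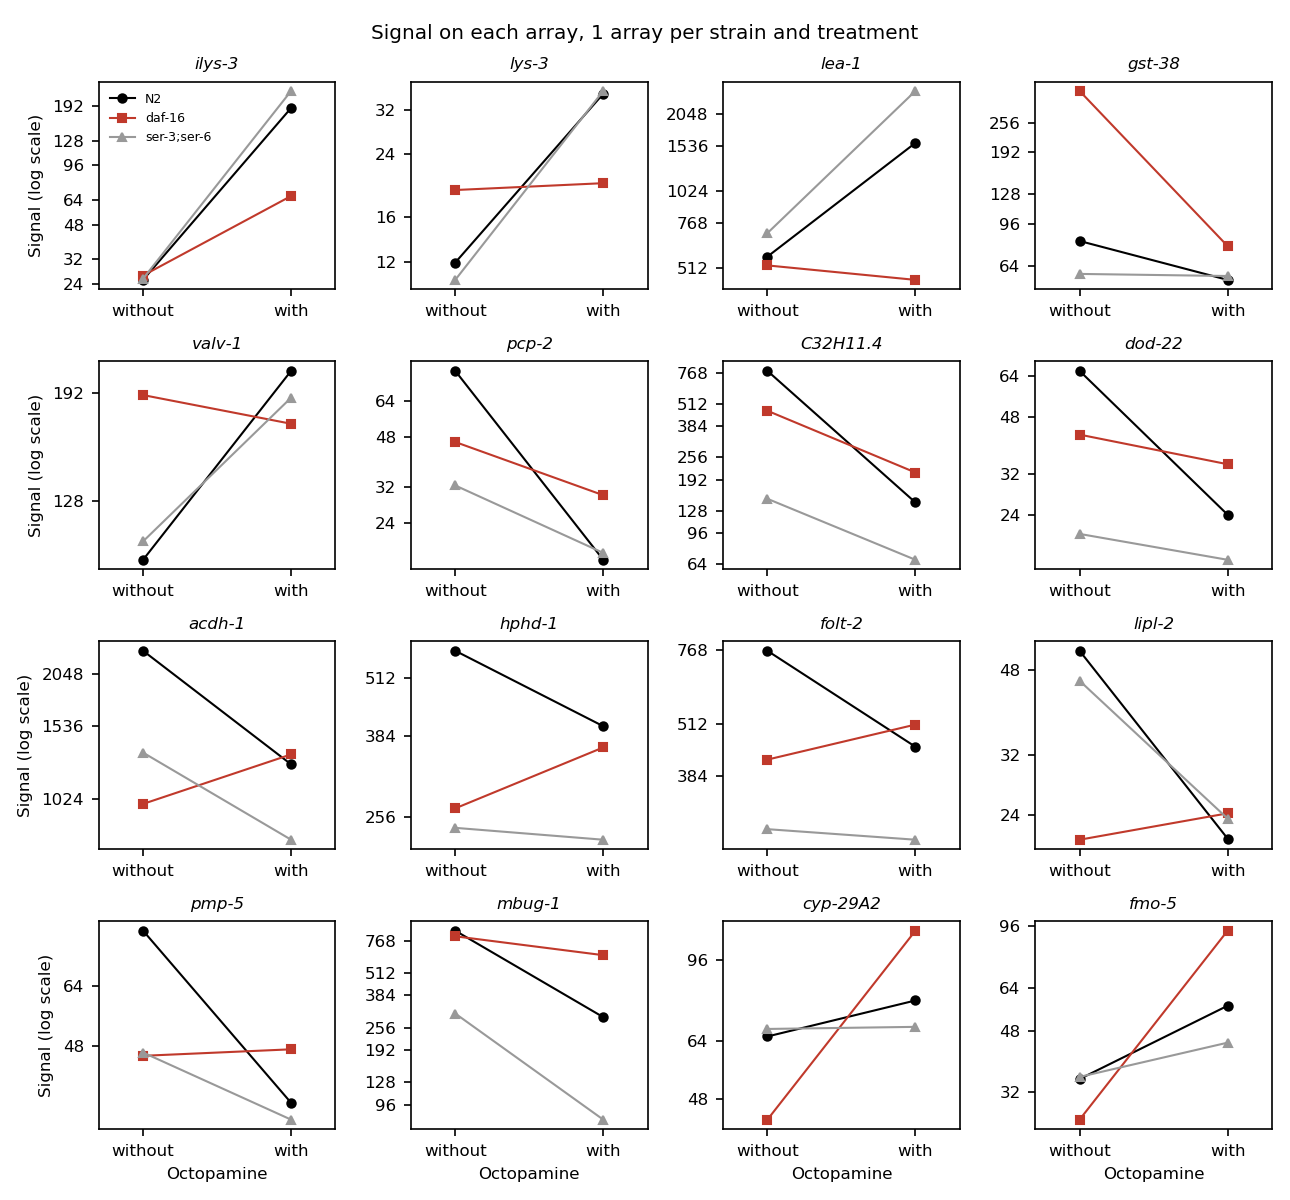
Signal (vertical axes, log scale, each panel with its own range) without and with octopamine for 16 genes in N2, daf-16 and the ser-3;ser-6 receptor mutant, 1 array per point. For ilys-3 the strains start at 25.2 to 26.5 and separate with octopamine, whereas for acdh-1 they start at 2337 in N2 and 995 in daf-16 and the treated arrays meet.

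The 15 genes with a lower change in N2 included pcp-2 and the CUB-domain genes C32H11.4 and dod-22. The lowest difference, -1.58, was that of pcp-2, a Pro-X carboxypeptidase of the lysosomal kind. Its signals were 81.7 and 17.8 for N2, 46.0 and 29.96 for daf-16, and 32.4 and 18.8 for the receptor mutant. All 3 strains were lower with octopamine, by -2.20, -0.62 and -0.79, and the untreated N2 array was the highest. The CUB-domain gene C32H11.4 had signals of 791 and 142 for N2, 470 and 210 for daf-16, and 149 and 67.4 for the receptor mutant. Its octopamine changes were -2.47, -1.16 and -1.15, a difference of -1.31 between N2 and daf-16. For dod-22, a CUB-domain class II gene, signals were 66.4 and 23.98 for N2, 42.3 and 34.3 for daf-16, and 20.9 and 17.4 for the receptor mutant. The difference was -1.17, and N2 was above daf-16 without octopamine and below it with octopamine, as for the other genes of this paragraph.

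The related class II gene dod-24 lay just outside the limit. It read 2113 and 297 for N2, 1910 and 529 for daf-16, and 916 and 148 for the receptor mutant, changes of -2.83, -1.85 and -2.63. The difference between N2 and daf-16 was -0.98. The gene mbug-1 showed a different course, starting at 872 in N2 and 812 in daf-16. With octopamine it read 292 in N2 and 639 in daf-16. The receptor mutant went from 306 to 79.8. The changes were -1.58, -0.34 and -1.94, so daf-16 had the smallest decrease of the 3 strains, and the difference was -1.23.

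Across the list of CUB-like and infection-response genes the octopamine decrease was smaller in daf-16 for most members. The list was chosen with earlier results of these data known, and it holds C32H11.4, dod-22 and dod-24 described above. Of 23 genes 21 were above the filter, and 17 of them had a negative difference, against 46.1% of all genes. Their median octopamine change was -1.35 in N2 and -0.57 in daf-16, and the median difference was -0.37 against 0.02 for all genes. With octopamine 11 were at least 2-fold lower in N2 and 8 in daf-16, so that a decrease was present in both strains. Past 0.5 were 8 genes lower and 0 higher, against 2.7% and 2.58% of all genes, and 2 were past 2-fold. K08D8.4 read 124 and 43.6 in N2 and 82.4 and 54.4 in daf-16, a difference of -0.90, whereas irg-1 was the highest member at 0.37. The median change in the receptor mutant, -0.52, was close to that in daf-16, but single members were divided. In the receptor mutant dod-24 (-2.63) and sysm-1 (-1.76) were nearer to N2, at -2.83 and -1.71, than to daf-16, at -1.85 and -1.06. By contrast dod-22 (-0.26) and K08D8.4 (-0.45) were nearer to daf-16, at -0.30 and -0.60, than to N2, at -1.47 and -1.50.

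**Figure D3:**
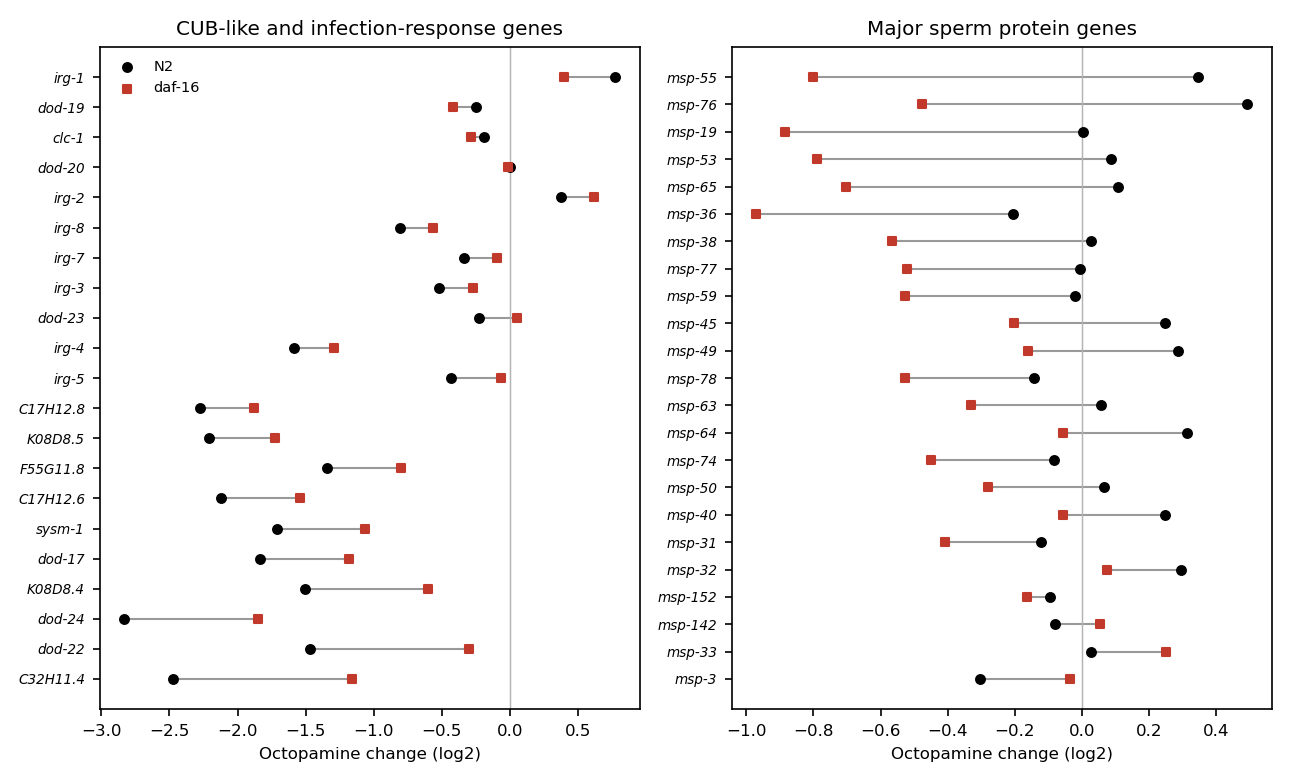
Octopamine change (horizontal axes, log2) in N2 (black circles) and daf-16 (red squares) for each CUB-like or infection-response gene above the filter (left, 21 genes) and each major sperm protein gene (right, 23 genes), joined by a line and ordered by the difference; 1 array per group. On the left most black circles lie further from 0 on the negative side, and on the right 20 of 23 red squares lie below 0.

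Other defence families differed in direction. Of 69 C-type lectins, which bind carbohydrates, the median difference was -0.03. Past 0.5 were 5 lower in N2 and 1 higher, against 2.7% and 2.58% of all genes. The lectin clec-65 read 524 and 285 in N2 and 401 and 364 in daf-16, a difference of -0.74. Among 15 epidermal antimicrobial-type peptides the median difference was 0.30, with changes of 0.15 for N2, -0.24 for daf-16 and 0.15 for the receptor mutant. There 14 of 15 had a positive difference, against 53.9% of all genes, and 1 was past 0.5 higher in N2, cnc-1 at 0.55, against 2.58%. The peptide nlp-27 read 418 and 254 in N2 and 456 and 203 in daf-16, a difference of 0.45, and cnc-2 read 189 and 125 in N2 and 249 and 120 in daf-16, a difference of 0.47. Of these 15 genes 11 were read by probe sets that match several transcripts. A pair of thaumatin-like genes had a median of 0.48, the higher being thn-1 at 0.69, with signals of 14.5 to 22.5.

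The propionate-breakdown genes acdh-1 and hphd-1 had octopamine changes of opposite sign in N2 and daf-16. Across the list of fatty acid beta-oxidation genes the median difference was -0.01 over 50 genes, with 22 positive and 28 negative. The gene acdh-1 encodes an acyl-CoA dehydrogenase of the propionate shunt, a route that worms use when vitamin B12 is scarce, and its promoter is a well-known dietary reporter. Signals were 2337 and 1241 for N2, 995 and 1312 for daf-16, and 1325 and 815 for the receptor mutant. The octopamine changes were -0.91, 0.40 and -0.70, and the difference between N2 and daf-16 was -1.31. The untreated N2 array was the highest of the 6, and with octopamine N2 and daf-16 were within 0.08 of each other. The shunt enzyme hphd-1, an oxidoreductase that acts later in the same route, was just outside the limit at -0.98. It read 586 and 402 for N2, 267 and 362 for daf-16, and 243 and 229 for the receptor mutant, with the untreated N2 array again the highest. Its second probe set had a difference of -0.77.

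The other genes of propionate metabolism, a set put together after the values of acdh-1 and hphd-1 had been seen, did not show differences of this size. The shunt enzymes ech-6, hach-1 and alh-8 had differences of -0.23, -0.19 and 0.00. In the B12-dependent route, pcca-1 was at 0.02, pccb-1 at 0.30, mce-1 at 0.20 and mmcm-1 at 0.06, each on the probe set with the highest mean. The second probe set had -0.12 for pcca-1, -0.25 for pccb-1 and -0.43 for mmcm-1, so that direction differed between probe sets. The nuclear receptors nhr-10 and nhr-68, which activate the shunt, were at -0.05 and -0.47. The folate transporter family member folt-2 had a course like that of acdh-1 in N2 and daf-16, but not in the receptor mutant. Its signals were 764 and 451 for N2, 421 and 510 for daf-16, and 287 and 271 for the receptor mutant. Its difference was -1.04.

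For the lysosomal lipase lipl-2 the N2 and receptor-mutant pairs were alike and daf-16 was not. Its signals were 52.7 and 21.5 for N2, 21.3 and 24.2 for daf-16, and 45.7 and 23.6 for the receptor mutant, so daf-16 without octopamine was as low as the treated arrays. The changes were -1.297, 0.18 and -0.95, a difference of -1.48 between N2 and daf-16. Another lysosomal lipase, lipl-5, was higher with octopamine in both strains, at 606 and 760 in N2 and 329 and 716 in daf-16. The lipl-5 difference was -0.79. The peroxisomal ABC transporter pmp-5 read 83.3 and 36.7 for N2, 45.9 and 47.3 for daf-16, and 46.6 and 33.9 for the receptor mutant. Its difference was -1.23, with the untreated N2 array apart from the other 5. The fatty acid elongase elo-6 read 1241 and 1275 in N2 and 418 and 699 in daf-16, a difference of -0.70.

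A list named fasting-induced genes was examined because DAF-16 responds to fasting and octopamine is released in food deprivation. The name is a label only, since the list also holds regulators. Whether each member, acdh-1 among them, is raised by fasting was not examined. Of 23 listed genes 20 were above the filter, with a median change of 0.05 for N2, 0.24 for daf-16 and 0.04 for the receptor mutant, and a median difference of -0.23. That median was -0.11 with the stricter filter. Past 0.5 were 3 of the 20, all lower in N2, against 2.7% of all genes: lipl-2, acdh-1 and lipl-5. The acyl-CoA synthetase acs-2, a common fasting reporter, read 87.3 and 173 for N2, 87.7 and 129 for daf-16, and 36.6 and 120 for the receptor mutant, a difference of 0.44. The autophagy and lipase regulator hlh-30 was at -0.14 and the fasting nuclear receptor nhr-49 at 0.09. Among the proteases of the intestine and lysosome the cathepsin B-like cpr-1 read 1690 and 3991 in N2 and 766 and 3418 in daf-16. It was higher with octopamine in both strains, by 1.24 and 2.16, a difference of -0.92. The median over the 34 proteases was -0.05.

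A pair of detoxification enzymes was higher with octopamine mainly in daf-16. The cytochrome P450 cyp-29A2 read 65.5 and 78.5 for N2, 43.2 and 111 for daf-16, and 68.1 and 68.8 for the receptor mutant. The daf-16 pair held both the lowest and the highest of the 6 signals, and the difference was -1.11. The flavin-containing monooxygenase fmo-5 read 35.0 and 56.8 for N2, 26.7 and 93.3 for daf-16, and 35.5 and 44.5 for the receptor mutant, changes of 0.70, 1.80 and 0.33. The difference was -1.104. Of the 5 flavin monooxygenases 4 had a negative difference, against 46.1% of all genes, and the median was -0.23. The median was -0.093 with signals raised to the filter's and -0.086 with a pseudocount. The member at the median was fmo-2, with octopamine changes of 1.81 in N2 and 2.04 in daf-16, and over the alternatives its difference ran from -0.40 to 0.03.

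Of 73 cytochrome P450 genes 35 were above the filter, with a median of -0.17, and 7 were past 0.5, all lower in N2, against 2.7% of all genes lower and 2.58% higher. After cyp-29A2 these were led by cyp-35C1 at -0.73 and cyp-25A1 at -0.71. For cyp-35C1 the signals were 105 and 94.6 in N2 and 78.5 and 117 in daf-16, with daf-16 the lower without octopamine and the higher with it. Among 27 short-chain dehydrogenases the median was 0.03, with 5 past 0.5 lower in N2 and 3 higher, against the same background. The lowest were dhs-2 at -0.87 and dhs-18 at -0.84, the latter at 194 and 198 in N2 and 129 and 235 in daf-16. Among UDP-glucuronosyltransferases ugt-21 was highest at 0.87 and ugt-43 lowest at -0.68.

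The other genes with a lower change in N2 past 2-fold came from several families. Y39B6A.1 read 786 and 589 for N2, 301 and 491 for daf-16, and 981 and 497 for the receptor mutant, a difference of -1.13, and its second probe set had -1.43. Y71H2AM.3 was at -1.18, the serpentine receptor srh-237 at -1.17 and the anion transporter family gene sulp-7 at -1.04, all at signals under 50. K04B12.2 was just inside the limit at -1.02, but its second probe set had 0.26. Just outside lay F53A9.8 at -0.998, with signals of 313 and 631 in N2 and 197 and 793 in daf-16, and the carboxypeptidase pcp-4 at -0.99, which was dim.

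Few genes were past 2-fold in one strain and nearly flat in the other. With the flat strain held to a change under 0.25, there were 8 such genes in N2 and 1 in daf-16. In N2 the 4 higher ones were lea-1, lys-3, valv-1 and fbxb-43, and the 4 lower ones were lipl-2, pmp-5, Y71H2AM.3 and the nucleoside transporter ent-7, which was at -1.001 in N2 and -0.24 in daf-16. The second ent-7 probe set had -0.28 in N2 and -0.59 in daf-16, a difference of 0.31 against -0.76 for the first. In daf-16 the gene was K04B12.2, at 1.06 against 0.04 in N2.

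Class I DAF-16 targets were lower in daf-16 than in N2 under both conditions. Of 24 listed genes 22 were above the filter. N2 exceeded daf-16 in 21 of the 22 without octopamine and in 21 with it, against 5026 and 5544 of all 10251 genes, and the median gap was 0.36 and 0.31. Their median octopamine change was 0.21 in N2 and 0.17 in daf-16, and the median difference was -0.02. The differences ran from -0.31 to 0.37, and 0 of 22 were past 0.5, against 5.28% of all genes, and nothing is read from that share. Over all genes the strains differed by at least 2-fold for 40 (0.39%) without octopamine and for 40 (0.39%) with it.

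Single targets gave the following values. The metallothionein mtl-1 read 242 and 250 in N2 and 29.4 and 24.3 in daf-16, a strain gap of 3.04 without and 3.36 with octopamine. The difference of 0.32 was small beside that gap. The ferritin ftn-1 read 166 and 288 in N2 and 44.4 and 85.8 in daf-16, so both strains were higher with octopamine by a like factor, with a difference of -0.16. The glyoxylate-cycle enzyme icl-1 read 802 and 1622 in N2 and 437 and 1044 in daf-16, and dod-3 read 95.6 and 166 in N2 and 57.4 and 98.5 in daf-16. Both were lower in daf-16 under each condition and higher with octopamine in each strain, with differences of -0.24 and 0.02.

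The superoxide dismutase sod-3, the best-known DAF-16 reporter, was dim, at 14.7 and 17.7 in N2 and 11.42 and 11.895 in daf-16. Its difference was 0.21, and 3 of the 4 signals were under the filter's. The catalase ctl-2 was at -0.08. The small heat shock gene hsp-12.6 and the superoxide dismutase sod-5 did not reach the filter. The highest members were the cytochrome P450 cyp-34A9 at 0.37 and mtl-1, and the lowest was hsp-16.2 at -0.31. The plot of the strain gap without and with octopamine shows the class I genes along the diagonal. Distance from that diagonal is the difference itself, so the 21 genes past 2-fold lie away from it by choice.

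**Figure D4:**
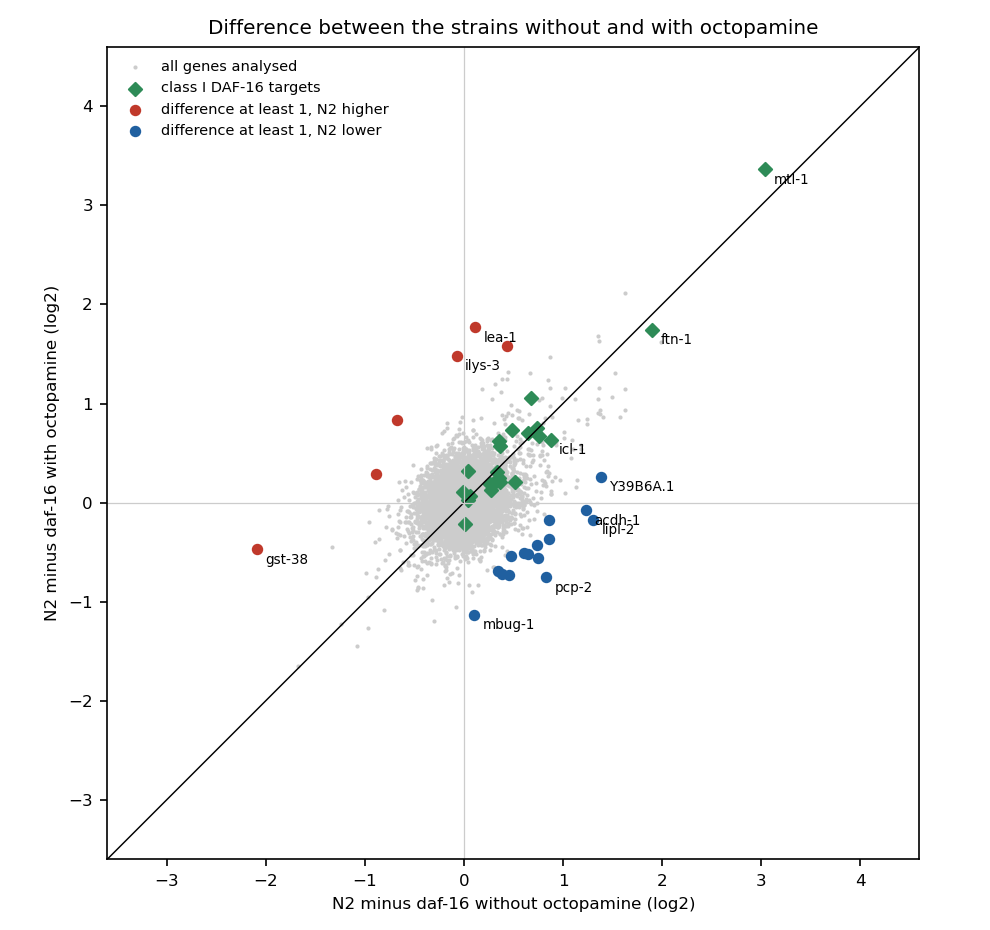
Signal in N2 minus signal in daf-16 (log2) without octopamine (horizontal axis) and with octopamine (vertical axis) for all 10251 genes, the 22 class I targets (green diamonds) and the genes past a 2-fold difference (red and blue circles), from 1 array per group. Class I targets such as mtl-1 (3.04 and 3.36) and ftn-1 (1.90 and 1.75) lie near the line of equal gap.

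Class II targets had a negative median difference. Of 17 listed genes 16 were above the filter, with a median change of -0.49 for N2, -0.34 for daf-16 and -0.23 for the receptor mutant. The median difference was -0.25, and 12 of 16 were negative, against 46.1% of all genes. N2 exceeded daf-16 in 9 of the 16 without octopamine and in 0 with it, against 5026 and 5544 of all 10251 genes. The median gap between N2 and daf-16 was 0.05 without and -0.16 with octopamine. Past 0.5, where 2.7% of all genes lay lower in N2, were dod-22, dod-24, dod-17 at -0.65 and F55G11.8 at -0.55, all lower in N2, and these 4 are also in the CUB-like and infection-response list. The signals of dod-17 were 115 and 32.3 in N2 and 108 and 47.8 in daf-16. The insulin-like peptide ins-7, the highest member at 0.40, was higher with octopamine in both strains, at 65.4 and 137 in N2 and 90.2 and 143 in daf-16.

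Components of the insulin and FOXO pathway had a median difference of -0.02 over 25 genes. Past 0.5 were 2, both lower in N2, against 2.7% of all genes. The stress factor skn-1 read 412 and 309 for N2, 248 and 309 for daf-16, and 225 and 240 for the receptor mutant, a difference of -0.73. The untreated N2 array was the highest, and the treated N2 and daf-16 arrays were equal. The gene sinh-1, for a subunit of the TOR complex that phosphorylates AKT and SGK kinases, read 50.3 and 36.1 in N2 and 30.3 and 38.3 in daf-16, a difference of -0.82. In the other direction the kinase gene pdk-1 was at 0.44, with signals of 148 and 226 in N2 and 164 and 185 in daf-16, and the energy sensor aak-2 was at 0.35. Each value is from the probe set with the highest mean, of 3 for skn-1, 2 for sinh-1, 5 for pdk-1 and 2 for aak-2. The other probe sets of these genes are not given here.

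Major sperm protein genes had the highest median difference of the cell type marker lists. These proteins form the cytoskeleton of nematode sperm and also signal to oocytes. All 23 were above the filter, with a median change of 0.03 for N2, -0.41 for daf-16 and -0.18 for the receptor mutant, and the median difference was 0.39. In daf-16 20 of 23 were lower with octopamine, against 60.9% of all genes, and in N2 9 of 23, against 58.4%. Past 0.5 were 9 genes, all higher in N2, against 2.58% of all genes, and 1 was past 2-fold. The summed signal of the 23 genes was 1944 and 2027 for N2, 1410 and 1038 for daf-16, and 1343 and 1174 for the receptor mutant, so N2 was the highest under both conditions. All 23 were read by probe sets that match several transcripts, so they are not separate measurements.

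Other sperm markers did not move with them. Of 24 such genes 10 were above the filter and 11 were under its signal on all 4 arrays. The summed signal of the 10 was 410 and 364 in N2 and 401 and 350 in daf-16, and their median difference was 0.11. Oocyte and eggshell markers had a median of -0.07 over 30 genes, intestine markers -0.08 over 31, body wall muscle markers 0.14 over 35 and neuron markers 0.05 over 27. The part of animal age or sperm number in the major sperm protein values was not tested.

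F-box proteins are substrate adaptors of ubiquitin ligases. Of 139 fbxb and fbxc F-box genes 72 were above the filter, with a median change of 0.39 in N2 and 0.24 in daf-16 and a median difference of 0.21. Without a filter the median difference was 0.058. Of the 72, 57 had a positive difference, against 53.9% of all genes, 10 were past 0.5 higher in N2 and 0 lower, against 2.58% and 2.7%. Untreated N2 signals were under the filter's for leading members such as fbxb-38 and fbxb-111, at 14.03 and 14.5. In the fbxa family the median was 0.06 over 62 genes. The Skp1-related adaptors, which join F-box proteins to cullin, had a median of 0.13 over 17 genes and 15 positive differences, against the same 53.9%. The adaptor skr-8 read 570 and 1091 for N2, 669 and 883 for daf-16, and 988 and 925 for the receptor mutant, a difference of 0.54.

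Neuropeptide genes had a median difference of 0.19 over 51 genes, of which 38 were positive, against 53.9% of all genes, and 5 past 0.5, all higher in N2, against 2.58%. On the spike-in scale described below that median was 0.023. The highest were nlp-35 at 0.77, nlp-39 at 0.76 and flp-1 at 0.69. For nlp-35 the untreated N2 signal, 13.1, was under the filter's. The flp-1 value is from the probe set with the highest mean, of 3, whose suffix marks a match to several transcripts. The signals of flp-1, which encodes FMRFamide-like peptides, were 63.6 and 82.4 for N2, 73.8 and 59.2 for daf-16, and 49.3 and 34.9 for the receptor mutant. Of 7 aquaporins aqp-8 was highest at 0.70, with signals of 30.9 and 130 in N2 and 48.96 and 128 in daf-16, so its treated signals were alike and the gap lay without octopamine. The octopamine receptor gene octr-1 was at -0.56 and the G-protein regulator rgs-1 at -0.95, both dim.

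**Figure D5:**
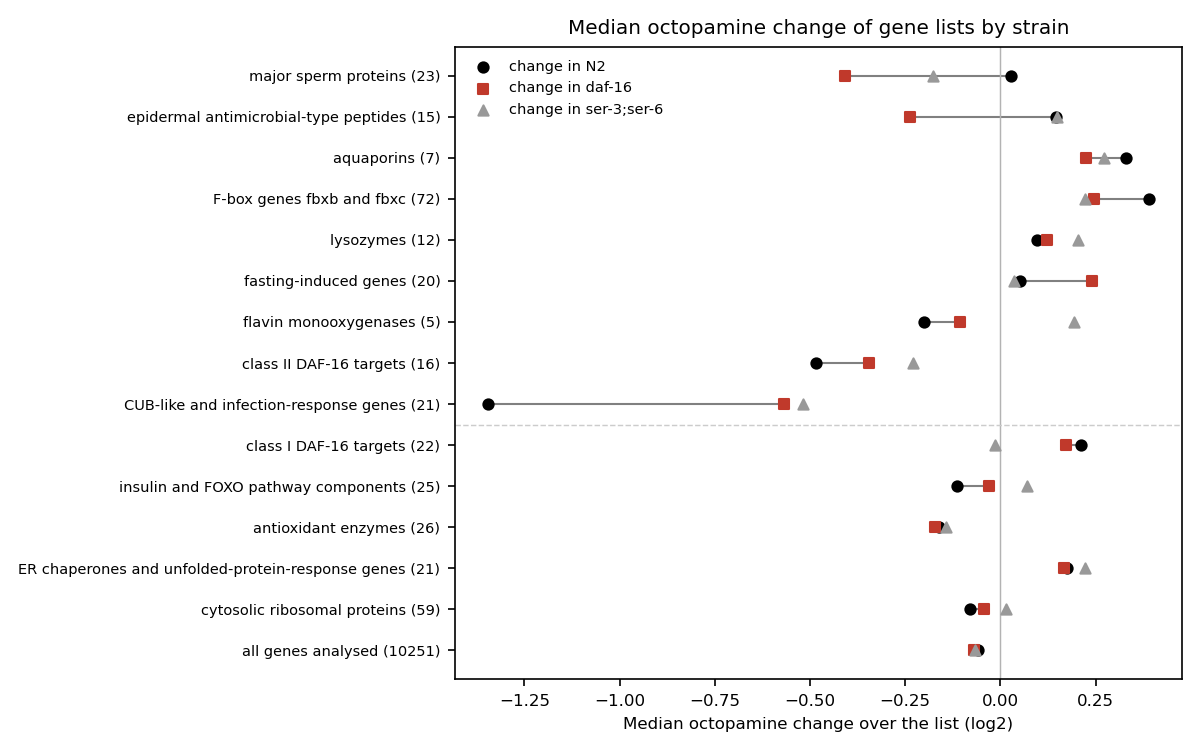
Median octopamine change (horizontal axis, log2) of gene lists in N2 (circles), daf-16 (squares) and the receptor mutant (triangles), with the number of genes above the filter in parentheses and a line joining N2 and daf-16. Lists above the dashed line have a median difference of at least 0.2 in size and at least 5 genes, such as the CUB-like and infection-response genes (-1.35 and -0.57); the lists below it lie within 0.2.

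Most of the lists gave no such difference. Of 62 lists, which overlap in part, 52 had a median difference within 0.2 of zero, 5 were higher and 5 lower, and 48 held no gene past 2-fold. Antioxidant enzymes, chaperones of the endoplasmic reticulum and cytosolic ribosomal proteins were among the 52. A median over a list describes these arrays and carries no test, and the lists were chosen with earlier results of these data known. Scaling to the spike-in probe sets, an alternative chosen after seeing the data, lowered the median difference of all genes from 0.02 to -0.14 and all lists with it. On that scale the fbxb and fbxc genes were at 0.041, the epidermal peptides at 0.13, the major sperm proteins at 0.22, the fasting-induced genes at -0.39 and the class II targets at -0.42, so small list medians rest on the scaling.

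The 21 genes split by which strain moved more. Of the 6 with a higher change in N2, 4 were higher with octopamine to a larger extent in N2 and 2 were lower to a larger extent in daf-16. Of the 15 with a lower change in N2, 11 were lower with octopamine to a larger extent in N2 and 4 were higher to a larger extent in daf-16. In 11 of the 21 the 2 strains had opposite signs, against 2488 of all 10251 genes. The gap between the strains was wider without octopamine in 10 of the 15 and in 2 of the 6, against 4751 of all genes. Choosing genes by a large difference favours opposite signs, and nothing is read from these counts.

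The untreated N2 array enters the difference, so that its share of highest signals is given as a description. It held the highest of the 6 signals for 10 of the 15 genes and for 146 of the 277 past 0.5 (52.7%), against 23.6% of all genes. The treated N2 array was the highest for 124 of the 264 genes past 0.5 in the other direction (46.97%), against 13.6%. Both shares follow in part from the choice of genes, and nothing is read from them. How far 1 array sets these genes was not tested.

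The receptor mutant arrays did not enter the difference. They did enter the signal filter and the choice of the probe set that stood for a gene. Over the 6 genes with a higher change in N2 the median octopamine change was 1.25 for N2, -0.17 for daf-16 and 1.27 for the receptor mutant. Over the 15 with a lower change the medians were -0.91, 0.28 and -0.57. Over the 264 and 277 genes past 0.5 the receptor mutant had medians of 0.09 and -0.17, against -0.07 for all genes. The receptor mutant's change was nearer to that of N2 than to that of daf-16 in 5 of the 6, 10 of the 15, 118 of the 264 and 144 of the 277, against 47.5% of all genes. Of the 21 genes past 2-fold, the 6 nearer to daf-16 were pcp-2, C32H11.4, dod-22, folt-2, pmp-5 and msp-55.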

How the data were processed

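RNA of 6 groups of whole C. elegans, 1 array each, had been labelled with biotin by 3' in vitro transcription, per the labels' protocols. The authors deposited 1 linear intensity for each probe set and array; their probe summary and normalization are not given in the sources used here. Of 22625 probe sets 77 were controls, and 20766 of the rest had 1 gene in the platform annotation, 887 several and 895 none. Entrez identifiers matched 20701 to the current gene table, giving 17118 genes. The probe set with the highest mean stood for a gene.

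Deposited values were converted to log2 with no pseudocount and centred on the array median. A filter on the mean log2 value over the 6 arrays was set at the 40th percentile over probe sets (signal 15.5) and left 10251 genes. The difference of differences was then taken over 4 arrays. With 1 array per group there were 0 residual degrees of freedom, so no test was run, and the number of arrays limits the precision. Genes were named by fixed rules: the daf-16 probe sets; the 15 highest and 15 lowest differences with locus names and 4 each without; up to 3 at each end of each gene list; known DAF-16 targets; genes past 2-fold in 1 strain and under 0.25 in the other; and those next to the threshold. Genes, gene lists and rules were chosen with earlier results of these data known. hlh-30 and nhr-49 and the propionate genes were named outside the rules, after values were seen.

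Alternatives were values as deposited, quantile normalization, signals raised to the floor, a pseudocount of 16, no filter or one at the 60th percentile, a filter on 4 arrays, the mean of all probe sets, and no shared probe sets. Scaling to the spike-in probe sets was chosen after seeing the data. The calculation was tested on simulated data. Promoter motifs were not analysed here. Python 3.11.15, numpy 2.4.6, pandas 2.3.3, scipy 1.17.1 and matplotlib 3.10.9 were used.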

Additional observations from a re-analysis of the deposited data

Results flagged for a closer look

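Genes past 2-fold were singled out where the octopamine change had opposite signs in N2 and daf-16. With 1 array per strain and treatment, none of these differences was tested. On the positive side they were lea-1 at 1.66, valv-1 at 1.18 and msp-55 at 1.15, each higher with octopamine in N2 and lower in daf-16. The daf-16 change was small for lea-1 (-0.19) and valv-1 (-0.16), against -0.80 for msp-55. The lea-1 probe sets did not agree, with differences from -0.57 to 1.66. On the negative side, lower with octopamine in N2 and higher in daf-16, were lipl-2 at -1.48, acdh-1 at -1.31, pmp-5 at -1.23 and Y71H2AM.3 at -1.18. The same held for srh-237 at -1.17, Y39B6A.1 at -1.13, sulp-7 at -1.04 and folt-2 at -1.04. Among these genes lipl-2, pmp-5 and Y71H2AM.3 were nearly flat in daf-16, with changes of 0.18, 0.04 and 0.11. A pair of gene lists with a median difference of at least 0.2 in size also had median changes of opposite sign in the strains, the epidermal antimicrobial-type peptides with a median difference of 0.30 and the major sperm proteins with 0.39. The median change of the major sperm proteins in N2 was near zero, at 0.03. The list differences were not tested either.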

How the results depend on the processing

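No paired analysis was possible because each group was 1 array and no comparison came from a test. Of the 21 genes past 2-fold, 8 stayed past it under every alternative that gave them a value: ilys-3 (1.34 to 1.61), gst-38, valv-1, pcp-2, C32H11.4, acdh-1 (-1.48 to -1.26), mbug-1 and Y39B6A.1. Without shared probe sets lea-1 became -0.57, because another of its probe sets then had the highest mean, and 3 genes were higher in N2 past 2-fold in place of 6. A pseudocount of 16 left 6 genes lower in N2 past 2-fold in place of 15, and 98 higher and 103 lower past 0.5 in place of 264 and 277. The stricter filter left 7, 128 and 117 of fewer genes tested, and no filter gave 450 lower past 0.5. The share that kept 50% of the change, 83.8%, was 90.3% with the pseudocount and 89.4% with the stricter filter. Scaling to spike-in probe sets, chosen after seeing the data, moved the median of all genes from 0.02 to -0.14 and gave 34 genes lower past 2-fold, with 82 higher and 803 lower past 0.5. The genes higher in N2 made up 28.6% of those past 2-fold, against 40% with the values as deposited or the pseudocount, 41.7% with the stricter filter and 12.82% with spike-in scaling.

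Of 617 list medians over all alternatives 77 moved by over 0.1, 62 of them with spike-in scaling. Outside that scaling 7 of these belonged to lists within 0.2 of zero, and 5 of the 7 changed sign, such as lysosomal and other lipases, from -0.14 to 0.16 with the stricter filter. The following are the lists with a median of at least 0.2 in size. With spike-in scaling, class II targets were at -0.42, lysozymes at -0.37, CUB-like and infection-response genes at -0.53, epidermal peptides at 0.13, thaumatin-like genes at 0.32, flavin monooxygenases at -0.40, fasting-induced genes at -0.39, fbxb and fbxc genes at 0.041, aquaporins at 0.052 and major sperm proteins at 0.22. Flavin monooxygenases were at -0.093 with signals raised to the floor and -0.086 with the pseudocount, where thaumatin-like genes were at 0.27. Without a filter thaumatin-like genes were at 0.31 and fbxb and fbxc genes at 0.058. With the stricter filter fasting-induced genes were at -0.11 and major sperm proteins at 0.51. Without shared probe sets aquaporins were at 0.062. Signal limits the dim genes most, as their spread was the widest.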
